A study of Homo sapiens with 6 samples.

Results

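The 10 genes described here mark neural progenitors and early neurons, and they are SOX2, SOX4, SOX11, NES, VIM, ID1, ID2, ID3, HES6 and NOTCH1. They were found by matching each symbol to 1 Ensembl identifier in the count table, which lists 60676 genes. Their levels were read in SK-N-BE cells, an established human neuroblastoma line, after 1.5 days in medium with 10 µM retinoic acid, an agent that drives these cells towards neurons. All 6 libraries came from this 1 line at this 1 time, with 2 libraries in each of 3 groups. The input libraries hold RNA of the total cell extract. The CyCoNP PD libraries hold the RNA pulled down from native extract with 22 biotinylated probes against CyCoNP (LINC02381, chr12:54126019-54147485, plus strand), a long noncoding RNA (lncRNA). The LacZ PD libraries hold the RNA pulled down with 5 probes against LacZ, a bacterial RNA that human cells lack, and serve as the control. The comparisons ask which transcripts are recovered with CyCoNP beyond their level in the extract and in the control. The study calls the pairs biological duplicates. Undifferentiated cells were not analysed here, so a level at day 1.5 cannot be set against a starting point.

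Neural progenitors are held in a dividing state by transcription factors of the SOXB1 group, such as SOX2, while the SOXC factors SOX4 and SOX11 turn on neuronal genes once a cell leaves that state. NOTCH1 is a receptor that, when cut after binding a ligand on a neighbouring cell, switches on repressors of neuronal genes. ID1, ID2 and ID3 lack a DNA-binding region and hold back the proneural factors by binding their E protein partners, and HES6 opposes the repressors that Notch induces. NES and VIM encode nestin and vimentin, intermediate filament proteins of progenitor cells. Neuroblastoma arises from the sympathoadrenal lineage of the neural crest.

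Sequences are shown first, because the pull-down depends on base pairing and because miR-4492 is among the miRNAs that the study examined beside CyCoNP. Its mature sequence (RefSeq, GRCh38.p14, chr11:118910765-118910781, plus strand) is given with the seed, bases 2 to 8, in capitals. The CyCoNP probe that pairs longest with any member, which is SOX11, follows with its paired stretch in capitals. The probe that pairs longest with SOX4 comes next, at 10 bases, a length shared by ID2, HES6 and NOTCH1, whose probes are not printed. Last is a probe that pairs over its whole length with CyCoNP itself.
hsa-miR-4492: gGGGCUGGgcgcgcgcc
CyCoNP probe 21, with SOX11: attgCTCATTTCACTTctgt
CyCoNP probe 10, with SOX4: atcaGGCTCCAGGAtgcaac
CyCoNP probe 2, with LINC02381: GGGAACTGGAGGGAGAGGTC
The longest exact stretch complementary to any of the 22 probes was 12 bases in SOX11, in its 3′ untranslated region. It was 10 bases in SOX4, ID2, HES6 and NOTCH1, 9 in SOX2, NES, VIM and ID1, and 8 in ID3, against 20 in LINC02381. With the LacZ probes the longest stretch was 10 bases in NES, 9 in SOX11 and 8 in the other members. Of the canonical transcripts of all tested genes, 56.4% hold a stretch of at least 10 bases. The site that pairs with the miR-4492 seed, CCAGCCC on the transcript strand, occurs 7 times in the NOTCH1 transcript, 4 times each in SOX11 and HES6, 2 times in NES and 1 time each in SOX2 and ID3. It does not occur in the transcripts of SOX4, VIM, ID1 and ID2, and 40.8% of all tested canonical transcripts hold it. A match is a description of letters and was not tested as a binding site.

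The libraries held between 18870 counts (LacZ PD 1) and 1512148 counts (CyCoNP PD 1). A level is given as CPM, the share of a gene in all counts of its library scaled to a common library size, and 3 counts, taken as the limit of detection, equal 1.98 to 5.83 CPM in the input and CyCoNP PD libraries, 21.4 CPM in LacZ PD 2 and 159 CPM in LacZ PD 1. CyCoNP, the check of the pull-down, had 20 and 39 counts in the inputs, 11687 and 3507 with the CyCoNP probes and 1 and 20 with the LacZ probes, a log2 fold change over input of 7.59 in CyCoNP PD (adjusted p = 0.0137, edgeR). Against LacZ PD its log2 fold change was 6.39, which was not called in the same fit (adjusted p = 0.0785, edgeR) and was called with the replicate number as a block (adjusted p = 1.65e-09). All 9 sympathoadrenal markers, such as PHOX2A, DBH and TH, were detected in both inputs, with a summed level of 1160 and 880.1 CPM. The pluripotency list had 0 to 3 counts in each library, and the list of 7 Schwann cell genes had 1 to 40 counts in each library, most of them from PMP22, with SOX10 and EGR2 at 0 in all 6.

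The 3 libraries numbered 1 stand apart from those numbered 2, in every group alike. They held skeletal muscle transcripts, which were far fewer in the libraries numbered 2. MYOG, a myogenic transcription factor, had 666 counts in input 1 against 1 in input 2, 1284 against 0 in CyCoNP PD and 22 against 0 in LacZ PD. Over a list of 27 muscle genes chosen after their values were seen, the summed level was 2407, 4597 and 5564 CPM in input 1, CyCoNP PD 1 and LacZ PD 1, and 29.0, 50.5 and 57.1 CPM in the libraries numbered 2. With a count in the number 1 library were 24, 26 and 18 of these 27 genes in the same order, and MYF6 was at 0 in all 6 libraries. The summed list of 11 mesenchymal genes was at 571, 362 and 477 CPM in the number 1 libraries against 59.3 to 91.3 CPM in the others. Of its 8 tested genes the collagen gene COL1A1 was called higher in number 1, as were 4.46% of all genes tested, and 3 had a negative value. The collagen genes COL1A2 and COL3A1 and the fibronectin gene FN1 were higher there too. These passed the filter on counts only through the libraries numbered 1, so they are a description and not counted as calls. The list of 5 astrocyte genes was at 65.5 and 31.7 CPM in input 1 and CyCoNP PD 1 against 2.53 and 3.88 CPM in input 2 and CyCoNP PD 2, nearly all from GJA1, a gap junction gene. The sympathoadrenal list ran from 714 to 1160 CPM over all 6 libraries. Values of the members are therefore given for each number, and the part of these transcripts in any difference between the numbers was not tested.

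**Figure D1:**
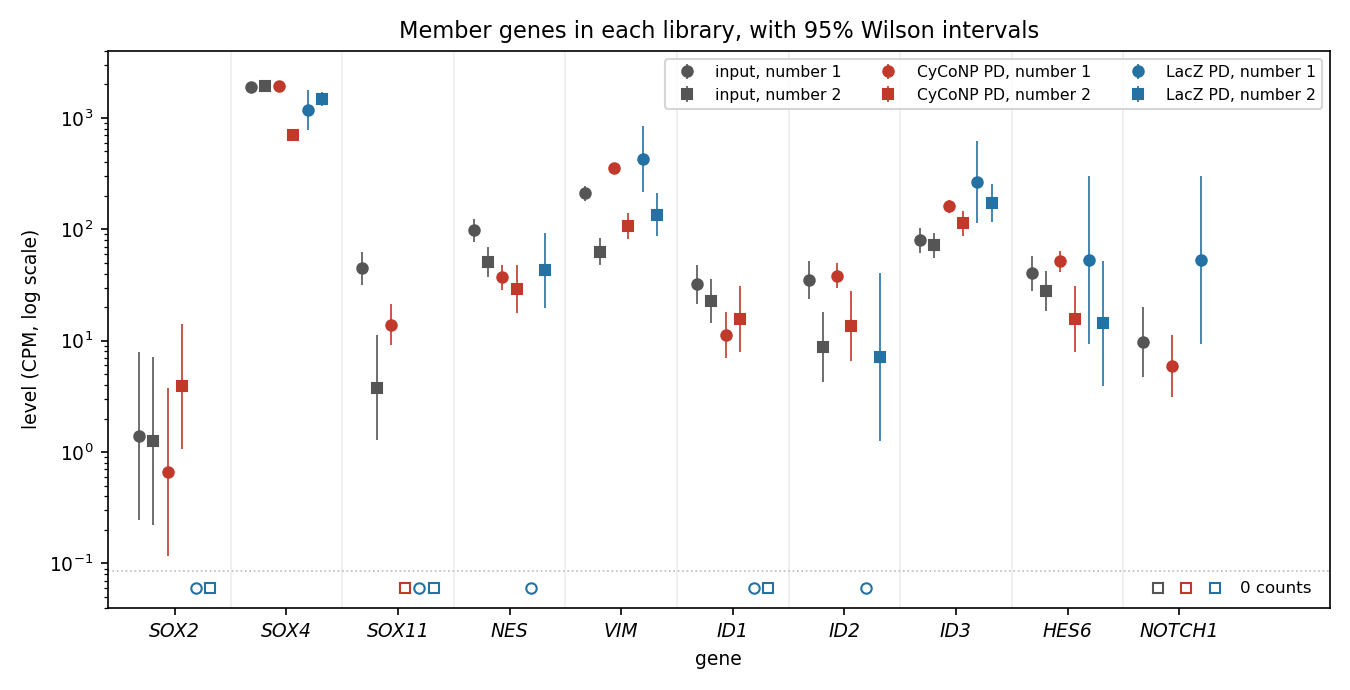
Level of each of the 10 genes in the 6 libraries, in CPM on a log axis; circles are libraries numbered 1, squares those numbered 2, bars are 95% Wilson intervals for counting error, and open symbols under the dotted line are libraries with 0 counts. SOX4 sits between 705 and 1931 CPM, above every other member in every library on this scale, which does not correct for length, and VIM is higher in the number 1 library of each group.

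In the input, SOX4 was the most abundant member on both scales used, CPM and CPM per kb. It had 1364 and 1523 counts, a level of 1912 ± 16.3 CPM (SD, n = 2), and it stood at rank 70 and 87 among all genes of the 2 inputs. To compare genes of unequal length, the members were ordered by CPM per kb of canonical transcript, although long-read counts need not grow with length. SOX4, at 392.6 ± 3.35 CPM per kb, was followed by ID3 at 79.7 ± 5.53 and VIM at 63.5 ± 48.3. Next came ID1 at 27.9 ± 6.70, HES6 at 24.9 ± 6.52, ID2 at 16.8 ± 14.1 and NES at 13.3 ± 5.97 CPM per kb. SOX11, at 2.69 ± 3.20, SOX2, at 0.529 ± 0.0367, and NOTCH1, at 0.510 ± 0.721 CPM per kb, closed the order. The 2 input values did not overlap between SOX4 and ID3, nor between NES and SOX11. All other neighbours in the order overlapped, so their ranks are not resolved by 2 libraries. Without the correction for length VIM stood at rank 2, ID3 at rank 3 and NES at rank 4.

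The 3 SOX genes are single-exon genes whose products bind DNA through a high mobility group domain, and they covered the whole range of levels. SOX2 (chr3:181711925-181714436, plus strand) had 1 count in each input, 1 and 2 with the CyCoNP probes and 0 in both LacZ PD libraries. With 5 counts in all it was not tested. Its level was at or below the limit of 3 counts in every library, so this core progenitor factor was not measurable at this depth. The 95% Wilson interval in input 1 ran from 0.246 to 7.89 CPM, and these intervals cover counting error only, since the amplified reads carry no molecular identifiers. The gene SOX2-OT, which spans it on the same strand, had 0 to 4 counts in each library.

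SOX4 (chr6:21593751-21598619, plus strand) had 2920 and 363 counts with the CyCoNP probes and 22 and 207 with the LacZ probes. Its level was 1931 CPM in CyCoNP PD 1, 705 CPM in CyCoNP PD 2, 1166 CPM in LacZ PD 1 and 1477 CPM in LacZ PD 2. By library size the 2 inputs and CyCoNP PD 1 lay within counting error of each other, whereas CyCoNP PD 2 was the lowest of the 6 libraries. With the TMM scaling of the tests LacZ PD 1 was lower, at 695 CPM beside 809 CPM in CyCoNP PD 2. CyCoNP PD over input was 1.02-fold in number 1 (95% counting interval 0.953 to 1.08) and 0.367-fold in number 2 (0.326 to 0.411). The pairs of libraries thus gave different ratios, and replicate libraries differed beyond sampling noise over all genes too.

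SOX11 (chr2:5692384-5701385, plus strand) was found almost only in the libraries numbered 1. It had 32 counts in input 1, 3 in input 2, 21 in CyCoNP PD 1 and 0 in CyCoNP PD 2 and in both LacZ PD libraries. The input level was 44.6 CPM in number 1 and 3.79 CPM in number 2, the latter at the limit of detection. In number 1, CyCoNP PD held 0.312-fold the input level (counting interval 0.171 to 0.557). The related factor SOX9 had 27 and 4 counts in the inputs and 28 and 2 in CyCoNP PD, given as a description since it too passed the filter on counts only through the libraries numbered 1, and SOX18 had 2 and 6 counts in the inputs.

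Of the filament genes, NES (chr1:156668763-156677407, minus strand) was lower in both CyCoNP PD libraries than in either input. It had 70 and 40 counts in the inputs, 56 and 15 with the CyCoNP probes and 0 and 6 with the LacZ probes, which are 97.5, 50.5, 37.0 and 29.1 CPM in the first 4 and 42.8 CPM in LacZ PD 2. CyCoNP PD over input was 0.380-fold in number 1 (0.262 to 0.548) and 0.577-fold in number 2 (0.296 to 1.07). VIM (chr10:17228241-17237593, plus strand) had 151 and 50 counts in the inputs, 535 and 55 with the CyCoNP probes and 8 and 19 with the LacZ probes. Its level was 210.3 and 63.1 CPM in input, 354 and 107 CPM in CyCoNP PD and 424 and 136 CPM in LacZ PD. Within each number VIM stood above input in the CyCoNP pull-down, 1.68-fold (1.40 to 2.03) and 1.69-fold (1.13 to 2.53), and in the LacZ pull-down, 2.02-fold (0.855 to 4.07) and 2.15-fold (1.20 to 3.71), where the interval of number 1 includes 1. These ratios use library size alone. With the TMM scaling of the tests VIM was at 253 CPM in LacZ PD 1 beside 222 CPM in input 1, a smaller gap, and at 136 CPM in LacZ PD 2 beside 75.9 CPM in input 2. Between the numbers VIM differed, by library size, 3.33-fold in input, 3.31-fold in CyCoNP PD and 3.13-fold in LacZ PD, each time higher in number 1. The gap in LacZ PD was smaller with TMM, by the levels just given. The antisense gene VIM-AS1 had 0 or 1 count in each library.

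The ID genes encode small inhibitors of proneural factors, and ID3 was the one best covered. ID3 (chr1:23557926-23559501, minus strand) had 57 counts in both inputs, 242 and 58 with the CyCoNP probes and 5 and 24 with the LacZ probes. Its level was 79.4 and 72.0 CPM in input, 160.0 and 113 CPM in CyCoNP PD and 265 and 171 CPM in LacZ PD. All 4 pull-down libraries were above both inputs. Within the numbers CyCoNP PD over input was 2.02-fold (1.50 to 2.74) and 1.57-fold (1.07 to 2.30), and LacZ PD over input was 3.34-fold (1.04 to 8.25) and 2.38-fold (1.41 to 3.90), all by library size. With TMM the gap in number 1 was smaller, at 158 CPM in LacZ PD 1 beside 83.8 CPM in input 1. Between the pull-downs, CyCoNP PD over LacZ PD was 0.604-fold (0.255 to 1.88) and 0.658-fold (0.402 to 1.11) by library size, and both intervals include 1. With the TMM scaling of the tests the direction turned in number 1, at 194 CPM in CyCoNP PD and 158 CPM in LacZ PD. It stayed in number 2, at 129 and 171 CPM.

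ID1 (chr20:31605283-31606515, plus strand) had 23 and 18 counts in the inputs, 17 and 8 with the CyCoNP probes and 0 in both LacZ PD libraries. Its CyCoNP PD levels, 11.2 and 15.5 CPM, were below both input levels, 32.0 and 22.7 CPM. With 3 counts per library as the limit, 0 counts allow a level of up to 4.96-fold that of input 1 in LacZ PD 1 and of up to 0.942-fold that of input 2 in LacZ PD 2. ID2 (chr2:8678845-8684461, plus strand) had 25 and 7 counts in the inputs, 58 and 7 with the CyCoNP probes and 0 and 1 with the LacZ probes. Its levels of 34.8 and 8.84 CPM in input and 38.4 and 13.6 CPM in CyCoNP PD overlapped between the groups and were higher in number 1 in both. ID2-AS1, on the opposite strand, had 0 to 6 counts in each library, and the pseudogene ID2B had 0.

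HES6 and NOTCH1 are the members of the Notch pathway. HES6 (chr2:238238267-238240662, minus strand) had 29 and 22 counts in the inputs, 78 and 8 with the CyCoNP probes and 1 and 2 with the LacZ probes. Its input levels of 40.4 and 27.8 CPM lay between its CyCoNP PD levels of 51.6 and 15.5 CPM. NOTCH1 (chr9:136494433-136546048, minus strand) had 7 and 0 counts in the inputs, 9 and 0 with the CyCoNP probes and 1 and 0 with the LacZ probes. The count in LacZ PD 1 is below the limit of 3 counts. In the libraries numbered 2, 0 counts allow up to 3.79 CPM in input, 5.83 CPM in CyCoNP PD and 21.4 CPM in LacZ PD, against measured levels of 9.75 CPM in input 1 and 5.95 CPM in CyCoNP PD 1.

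CyCoNP PD was compared with input to see which transcripts came down with the lncRNA. Of the 9 members tested 0 were called, at an adjusted p under 0.05 and a log2 fold change beyond 1 in either direction, with edgeR's quasi-likelihood test. DESeq2 also called 0. Over all 12565 genes tested edgeR called 0.127% and DESeq2 0.573%. An unadjusted p under 0.05 was found for 0 members, and over all genes for 387 with a higher and 291 with a lower value. ID3 had a log2 fold change of 0.93 (95% interval -0.35 to 2.21, adjusted p = 1.00), and VIM one of 0.89 (-0.69 to 2.48). On the other side lay SOX11 at -1.39 (-3.94 to 1.16), NES at -1.05 (-2.54 to 0.44) and ID1 at -0.97 (-2.60 to 0.65). SOX4, at -0.45 (-1.96 to 1.05), NOTCH1, at -0.26 (-3.71 to 3.20), HES6, at 0.13 (-1.38 to 1.63), and ID2, at 0.43 (-1.27 to 2.14), had intervals wide enough to hold a change of more than 2-fold either way. Of these values 4 were positive and 5 negative, with a median of -0.26 beside -0.01 over all genes tested. With the replicate number as a block 0 members were called as well, beside 2.26% of all genes tested, and the smallest edgeR adjusted p was 0.474, for SOX11.

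LacZ PD was compared with input as the background of the pull-down. Again 0 of 9 members were called by edgeR and 0 by DESeq2, and over all genes tested edgeR called 0% and DESeq2 0.43%. An unadjusted p under 0.05 in edgeR was found for 1 of the 9 members, ID1, on the lower side. Over all genes it was found for 93 higher and 789 lower values. Of the 7 members with a LacZ PD count 0 had such a p. ID1 and SOX11 had 0 counts in LacZ PD, so their fitted values are not printed. Against 3 counts summed over both LacZ PD libraries, the input level of ID1 was at least 1.44-fold higher and that of SOX11 at least 1.23-fold higher. With 3 counts allowed in each library, LacZ PD 1 could hold up to 4.96-fold the input 1 level of ID1 and 3.57-fold that of SOX11. The bounds thus hold only for the summed limit, and neither gene was called. ID3 had a log2 fold change of 0.96 (-0.42 to 2.34) and VIM one of 0.30 (-1.42 to 2.02). NOTCH1, with 1 count in LacZ PD, stood at 0.51 (-4.86 to 5.88). SOX4, at -0.97 (-2.50 to 0.57), NES, at -1.39 (-3.25 to 0.47), and HES6, at -1.03 (-3.24 to 1.19), were on the lower side. ID2, with 1 count in LacZ PD, had the lowest value among members with a count there, -2.02 (-5.13 to 1.08). The median of the fitted values was -1.03 over the members and -0.68 over all genes tested, with a negative fitted value for 8406 of the 12565 genes. With SOX11 and ID1 put at their bounds from the summed limit, the median of the members was -0.53, which is not on the same footing as the median over all genes.

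CyCoNP PD was then set against LacZ PD, which asks whether a transcript was recovered by the CyCoNP probes beyond the control probes. Again 0 of 9 members were called by edgeR and 0 by DESeq2, with 0% of all genes called by edgeR and 0.302% by DESeq2. The target itself, CyCoNP, was not called in this fit either, so a count of 0 does not show that no transcript was recovered beyond LacZ PD. With the replicate number as a block CyCoNP was among the 97 genes called, 0.772% of those tested, and 0 members were called. An unadjusted p under 0.05 in edgeR was found for 1 of the 9 members, ID1, on the higher side. Over all genes it was found for 595 higher and 58 lower values. Of the 7 members with a LacZ PD count 0 had such a p. For ID1, with 3 counts allowed over the LacZ PD group, the ratio of CyCoNP PD to LacZ PD had a lower bound of 0.654, below 1. ID3 had a log2 fold change of -0.03 between the pull-downs (-1.40 to 1.33) and NOTCH1, with 1 count in LacZ PD, one of -0.77 (-6.16 to 4.62). The highest values among members with a LacZ PD count were those of ID2, at 2.46 (-0.57 to 5.48), and HES6, at 1.15 (-1.04 to 3.35), with 1 and 3 counts in the LacZ PD group. SOX4 stood at 0.51 (-1.01 to 2.04), VIM at 0.59 (-1.12 to 2.30) and NES at 0.35, and all 3 turned negative when libraries were scaled by size alone. The median of the fitted values was 0.59 over the members and 0.64 over all genes tested. With SOX11 and ID1 put at their bound, the median of the members was 0.35, which is not on the same footing as the median over all genes. Scaling by library size alone moved the median over all genes to 0.22 here and from -0.68 to -0.34 in LacZ PD against input. The 3 comparisons share libraries, so their values for a member are not independent of each other.

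**Figure D2:**
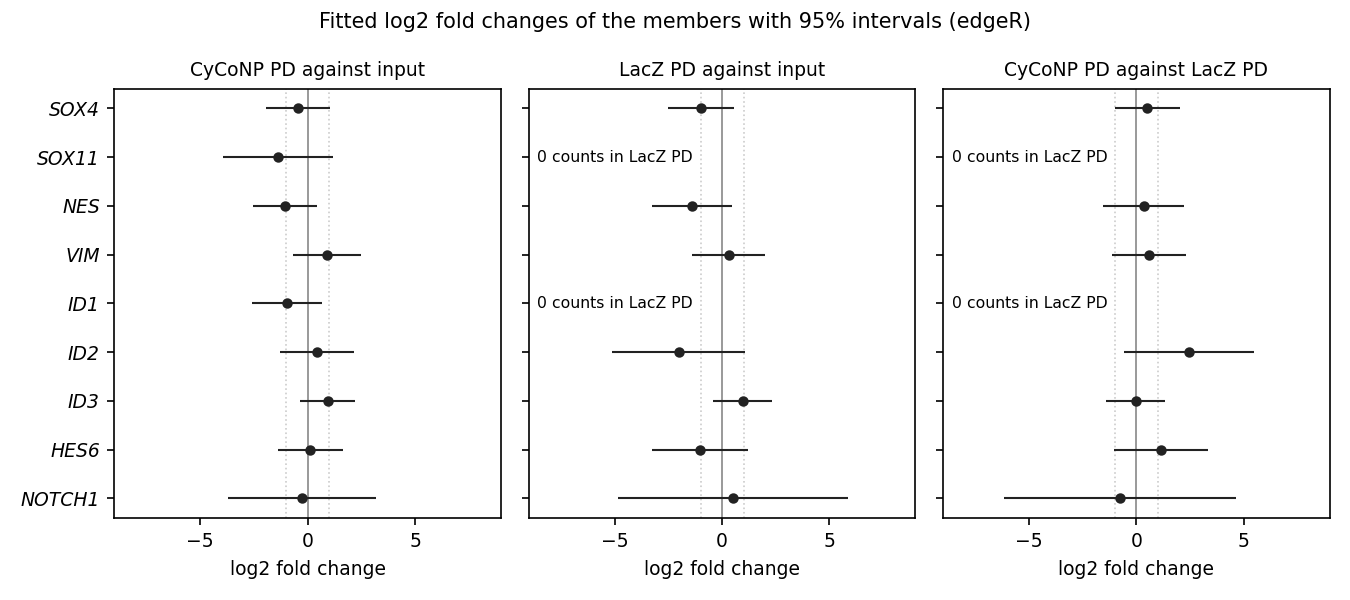
Fitted log2 fold change of each tested member (points) with its 95% interval (bars) in the 3 comparisons; the solid line marks 0 and the dotted lines -1 and 1. All plotted intervals cross 0, and SOX11 and ID1 have no point against LacZ PD, where both libraries held 0 counts.

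The libraries numbered 1 were compared with those numbered 2 within the groups, after their difference had been seen, since the same split ran through several members. Same-numbered libraries were read as belonging together, so each number stands for 1 replicate, not for 3. Intervals and p-values between the numbers, here and elsewhere, cover the spread among these libraries and do not extend to other replicates. VIM was called higher in number 1, as were 4.46% of all genes tested. SOX11 and NOTCH1 passed the filter on counts only through the libraries numbered 1, so their values are given as a description with no test. VIM had a log2 fold change of 1.50 (95% interval 0.58 to 2.41, adjusted p = 0.0296 from edgeR). It was higher in each of the 3 groups, which are not 3 replicates of a number. SOX11 had 53 counts in number 1 and 3 in number 2, an 11.4-fold higher level (95% counting interval 3.68 to 56.9) as a ratio of summed counts. NOTCH1 had 17 counts against 0, a ratio of at least 3.65 against a limit of 3 counts over the group. ID2 had a log2 fold change of 1.56 (0.27 to 2.85, adjusted p = 0.180) and HES6 one of 1.03 (-0.12 to 2.18, adjusted p = 0.415). NES at 0.39, ID3 at 0.20, SOX4 at 0.12 and ID1 at 0.00 were nearest to no difference. The call of VIM was lost without either input or either CyCoNP PD library and was kept without either LacZ PD library, and its log2 fold change over these fits ran from 1.26 to 1.68. The muscle genes are not counted as calls here, since the list was chosen on this difference and most of its genes had 0 counts in the libraries numbered 2. In bulk libraries more cells of a type and more RNA per cell cannot be told apart. Processed pseudogenes, mostly copies of other genes, made up 326 of the 560 genes called higher in number 1 and 924 of the 12565 genes tested, while 199 of 10482 protein-coding genes tested were called higher.

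**Figure D3:**
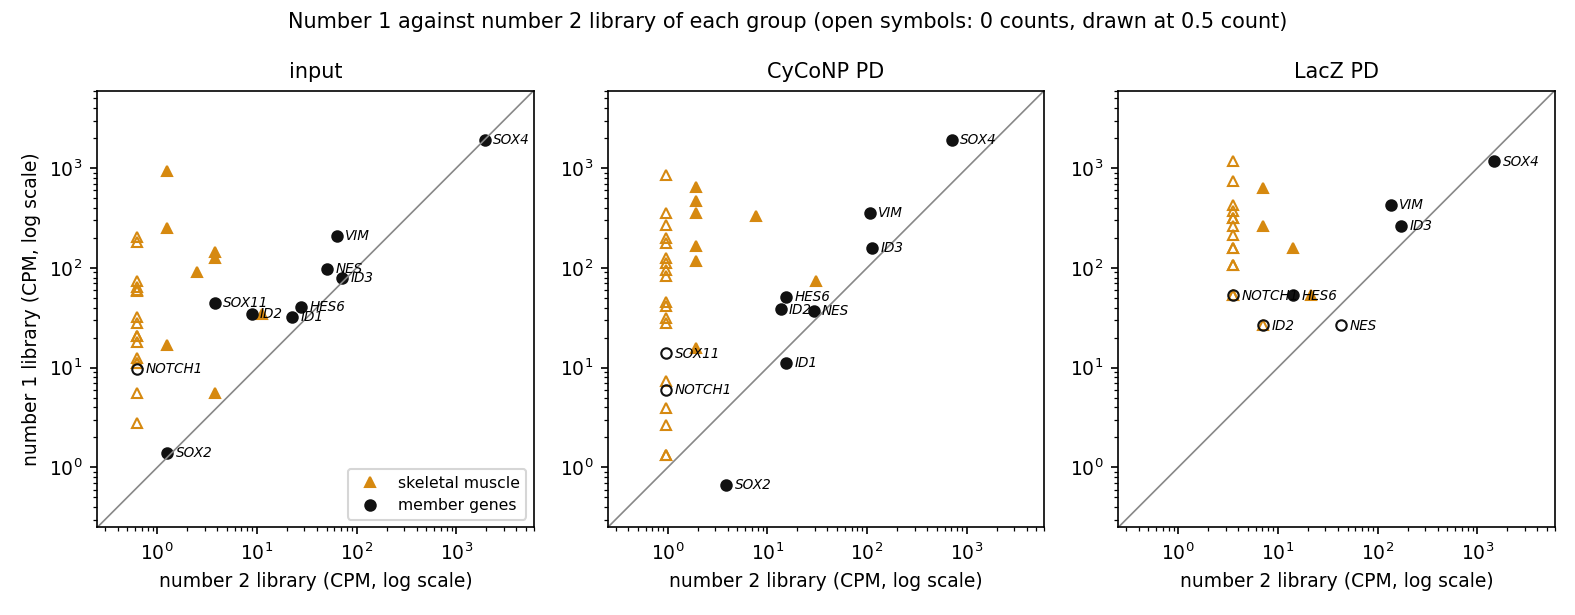
Level in the library numbered 1 (vertical) against that numbered 2 (horizontal) of each group, in CPM on log axes; black circles are the 10 genes, orange triangles the 27 muscle genes, open symbols have 0 counts in one library, and the line marks equal levels. Most muscle genes with a count lie above the line, except that TNNT3, with 0 counts in LacZ PD 1 and 1 in LacZ PD 2, lies below it in the LacZ PD panel. SOX4, ID1 and ID3 lie near it in the input, and VIM lies above it in each panel.

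Genes related to the members were read from 9 lists with 151 genes, of which 86 passed the filter on counts. In the 3 comparisons between the groups, edgeR called 0 of these 86 genes. With the replicate number as a block it called 3 in CyCoNP PD against input, 3 in LacZ PD against input and 1 in CyCoNP PD against LacZ PD, while 2.26%, 0.923% and 0.772% of all genes tested were called. Between the numbers CDH2 was called higher in number 1 and DLK1 and ADAM17 lower, beside 4.46% and 0.812% of all genes, and DES passed the filter only through the libraries numbered 1. In each list, the genes described are those with the highest mean CPM in input, not corrected for length, and those called with the block or between the numbers. NOTCH3 and SOX18, which meet neither condition, are named besides. Among Notch receptors and ligands these were DLK1, a noncanonical ligand, and DLL3, an inhibitory ligand. DLK1 had 259 and 1075 counts there, against 941 and 1209 in CyCoNP PD. It was called lower in number 1, with a log2 fold change of -2.13 (adjusted p = 0.00184, edgeR), where each number is 1 replicate. Of this list 5 of 9 genes had a count in input, and the receptor NOTCH3 had 1 and 3. Of the 16 genes for Notch processing and trafficking 15 had a count in input, led by the γ-secretase subunit PSENEN at 76.6 ± 25.6 CPM and the fucosyltransferase POFUT1 at 70.7 ± 42.9 CPM. ADAM17, of the same list, had 4 and 18 counts in the inputs, 12 and 72 with the CyCoNP probes and 4 and 4 with the LacZ probes. Its log2 fold change between the numbers was -2.43.

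The Notch transcription complex was represented by RBPJ, its DNA-binding protein, at 167 ± 84.7 CPM, and the coactivator MAML3 at 74.0 ± 23.9 CPM in input. RBPJ had 163 and 85 counts in the inputs, 89 and 17 with the CyCoNP probes and 1 and 1 with the LacZ probes. It was not called in the comparisons above (edgeR adjusted p = 0.790 for CyCoNP PD and 0.480 for LacZ PD). With the replicate block it was called lower in both pull-downs, at -1.76 on the log2 scale for the CyCoNP probes (adjusted p = 0.0380) and -3.62 for the LacZ probes (adjusted p = 0.0186).

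The E proteins are the partners that the ID proteins bind, and 2 of them, TCF12 and TCF4, differed widely between the inputs. TCF12 had 90 and 1421 counts in the inputs, 151 and 8 with the CyCoNP probes and 1 and 1 with the LacZ probes. TCF4 had 708 and 124 counts in the inputs, 188 and 86 with the CyCoNP probes and 3 and 10 with the LacZ probes. Neither was called without the block, with edgeR adjusted p-values of 0.339 for TCF12 and 0.815 for TCF4 in CyCoNP PD. With the block edgeR called TCF12 lower in both pull-downs (adjusted p = 0.00248 and 5.01e-07) and TCF4 in LacZ PD (adjusted p = 0.0331). The LacZ PD call of TCF12 rests on 1 count in each library, below the limit of 3 counts. In LacZ PD 1 that limit, 159 CPM, lies above the level of TCF12 in input 1, so a fall could not be seen there. The fall of TCF12 with the CyCoNP probes was large in number 2, from 1421 to 8 counts. In number 1 it had 90 of 717905 counts in input and 151 of 1512148 in CyCoNP PD, so the numbers differ. Of the 20 genes in this list 7 had a count, and the neurogenic factors of the NEUROG and NEUROD families had none in input.

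In the BMP pathway, which induces the ID genes, the receptor-regulated SMAD9 led with 134 ± 51.6 CPM in input, and the receptor BMPR2 followed at 66.8 ± 17.8 CPM. Of the other SOX factors 6 of 14 had a count in input, and SOX9 and SOX12 led them at 21.3 ± 23.0 and 8.92 ± 9.05 CPM. Of the other intermediate filaments, 10 of 14 had more than 3 counts in both inputs. NEFM, a neurofilament subunit, had 409 and 161 counts in input, and LMNA, a nuclear lamin, had 127 and 105. DES, the muscle filament desmin, had 23 and 0 counts in the inputs and 176 and 1 with the CyCoNP probes.

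The lists of early neuron genes and of further progenitor genes are described by their counts, and the difference between them was not tested. More than 3 counts in both inputs were found for 19 of 22 early neuron genes and for 8 of 26 further progenitor genes, with medians over the lists of 32.6 and 0.233 CPM per kb. STMN2, a regulator of microtubules in growing neurites, had 396 and 502 counts in input, and GAP43, a growth cone protein, had 702 and 111. Among the progenitor genes CDH2, which encodes N-cadherin, had 237 and 48 counts and the RNA-binding protein gene MSI2 had 175 and 111. CDH2 was called higher in number 1, with a log2 fold change of 1.59 (adjusted p = 0.0326, edgeR), where again each number is 1 replicate. NCAM1, an adhesion molecule of neurons, had 147 and 122 counts in the inputs, 1945 and 477 with the CyCoNP probes and 3 and 1 with the LacZ probes. Its log2 fold change over input of 2.71 had an adjusted p of 0.318 in edgeR, and 0.000614 with the replicate block, and with the block it was called higher than in LacZ PD too (adjusted p = 1.94e-07).

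**Figure D4:**
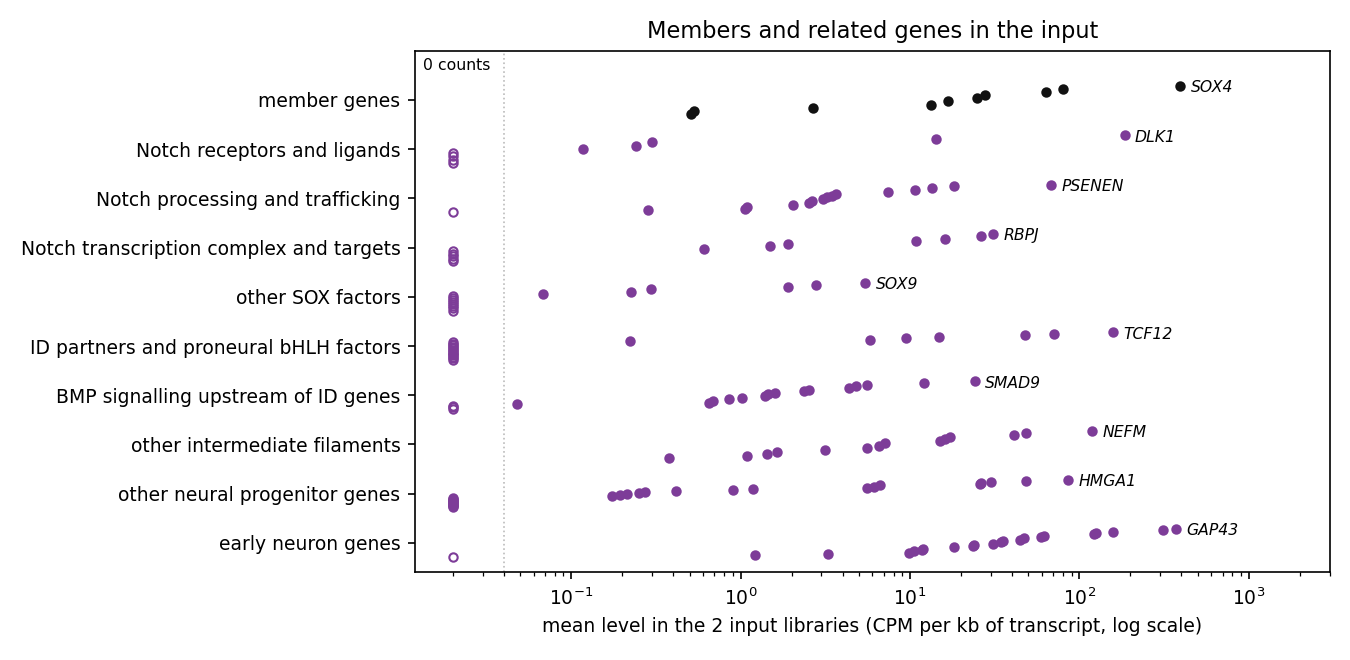
Mean level in the 2 input libraries of the members (black) and of the genes in 9 related lists (purple), in CPM per kb of transcript on a log axis; each point is a gene, open points left of the dotted line had 0 counts, and the gene highest in each list is named. SOX4 is the highest of all genes drawn, and the early neuron genes lie mostly to the right of the other progenitor genes.

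The 3 genes whose pattern over the 6 libraries was nearest to that of SOX4 were sought among 4315 genes with at least 100 counts, by the Euclidean distance of mean-centred log2 CPM. They were SEC61G, a subunit of the protein translocation channel, at a distance of 0.41, DDX27, an RNA helicase, at 0.48, and SF3B5, a splicing factor subunit, at 0.57. SEC61G had 636 and 678 counts in the inputs, 1094 and 181 with the CyCoNP probes and 8 and 81 with the LacZ probes. As for SOX4, its level in CyCoNP PD 2 was the lowest of the input and CyCoNP PD libraries.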

How the data were processed

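Gene counts of 6 Nanopore PCR-cDNA libraries were analysed. The authors basecalled the reads with Guppy, removed reads under 100 nucleotides with Nanofilt, aligned them to GRCh38 with minimap2 (2.24-r1122 in the submitters' processing notes) and counted them per gene of an Ensembl annotation with Bambu, without new isoforms. They deposited whole-number counts, not normalized, and the same values as CPM. The deposited CPM were used only as a check, and they differed from the counts divided by the library total by at most 5.09e-11. All columns were matched to samples by group and number, and totals ran from 18870 to 1512148 counts.

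The tests took the genes that reached 10 counts summed over all 6 libraries, in 1 fit (edgeR 4.0.16, TMM, quasi-likelihood test, Benjamini-Hochberg adjustment over all genes; R 4.3.3) and called at an adjusted p under 0.05 and a log2 fold change beyond 1. The tests were tried first on simulated counts, drawn with the same spread for every gene. That trial does not show how the tests perform on these libraries. Alternatives were DESeq2 1.42.0, other size factors, other filters, fits of 2 groups, a block for the replicate number, and fits that each lacked 1 library. The replicates of each group differed by more than sampling noise (chi-square per degree of freedom 18.4, 14.3 and 4.11). Same-numbered libraries deviated together from their group means (r across genes 0.257 to 0.449 over 6 pairs, of which the 2 numbers mirror each other), so the numbers were read as pairs. Positions and transcript lengths are from GENCODE release 44 (GRCh38). How Bambu divides reads between copies of a gene bears on pseudogenes.

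The members and gene lists were chosen with earlier results of these data known, the muscle list and the comparison of the numbers after their values were seen. Named genes are the members, CyCoNP, in each list the genes called in a comparison or else the 2 with the highest mean CPM in input, and the 3 patterns nearest to SOX4. NOTCH3, SOX18 and genes overlapping the members are named besides. Genes called only with the block or between the numbers, and markers, were named after their values were seen.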

Additional observations from a re-analysis of the deposited data

How the results depend on the processing

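No alternative called a member in the 3 comparisons between groups: edgeR gave 0 with the 3 scalings and 3 filters tried, with the replicate block, with only 2 groups in the fit and without each library (0 to 0), and DESeq2 gave 0 with and without the block. Over all genes the calls moved more, from 0 to 284 in CyCoNP PD against input (16 as reported, 284 with the replicate block, 72 with DESeq2), 0 to 116 in LacZ PD against input and 0 to 97 in CyCoNP PD against LacZ PD; higher in number 1 were 161 to 669 (560 as reported). VIM was the member called higher in number 1. A count that also takes in SOX11 and NOTCH1, which passed the filter only through those libraries and are no test, was 2 (SOX11 and VIM), 3 with library size alone (NOTCH1 added), 1 with DESeq2 (VIM, SOX11 having no adjusted p), 1 without a count filter (SOX11, VIM having an adjusted p of 0.0952 in edgeR), 1 with filterByExpr (VIM, SOX11 not passing that filter) and 0 to 2 without single libraries. Of 23 fold changes of members in the 3 comparisons, 26 of 305 values under alternatives had the other sign, none of them called; these values leave out comparisons with a group at 0 counts.

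In CyCoNP PD against input, HES6 turned to -0.0034 with DESeq2, -0.0437 with the replicate block and -0.204 with both. In CyCoNP PD against LacZ PD, library size alone gave -0.0158 for SOX4, -0.0278 for NES and -0.0782 for VIM, and no count filter gave 0.0737 for ID3. Between the numbers filterByExpr gave -0.0120 for ID1. Without single libraries, values against input in CyCoNP PD ran from -1.39 to 0.11 for SOX4, -2.25 to 1.00 for SOX11, -0.26 to 1.86 for VIM, -0.57 to 1.57 for ID2, -1.05 to 0.71 for HES6 and -1.21 to 0.45 for NOTCH1. In LacZ PD they ran from -0.26 to 1.19 for VIM and -0.46 to 2.32 for NOTCH1, and, with no change of sign, from -1.88 to -0.56 for SOX4, -2.63 to -0.91 for ID2 and -1.41 to -0.51 for HES6. Between the pull-downs they ran from -0.42 to 1.43 for SOX4, -0.11 to 0.51 for NES, -0.52 to 1.21 for VIM, -0.32 to 0.29 for ID3, -0.0216 to 1.73 for HES6 and -2.57 to 0.0839 for NOTCH1, and from 1.43 to 2.97 for ID2. Between the numbers they ran from -0.66 to 0.66 for SOX4, -0.39 to 0.30 for ID1 and -0.11 to 0.32 for ID3. With no change of sign they ran from 0.40 to 1.68 for HES6 and 1.26 to 1.68 for VIM. For SOX11, a description only, they ran from 3.26 to 3.69 in the fits that kept both inputs. The cause was not tested. LacZ PD 1, where 3 counts are 159 CPM, limits the control for every member below that level.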
